A study of Mus musculus with 16 samples.

Results

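The Bcl2 family survival genes are the genes of proteins that guard or open the outer membrane of the mitochondrion. The 10 genes named for this description were Bcl2, Bcl2l1, Bcl2l2, Mcl1, Bcl2a1d, Bax, Bak1, Bcl2l11, Bbc3 and Bid, and they were matched by symbol to the array's annotation. Of these 10 listed genes, 9 were measured among 19505 genes, each by 1 probe set. Bax was not analysed here.

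The samples came from S100a5-tauGFP mice. These carry a green fluorescent protein (GFP) under the control of S100a5, whose expression follows neuronal activity in the olfactory epithelium. In all, 24 mice of both sexes, 7 to 12 weeks old, were housed singly in chambers of clean air flowing at 3.1 L/min for 40 hours. From hour 26 they received 10-second pulses every 20 min, either of filtered air as the vehicle or of the odorant, for which the labels give indole/ionone. The olfactory mucosa of 3 mice at a time was dissociated and sorted into GFP+ and GFP- cells, which gave 4 odor pools and 4 vehicle pools and so 16 samples in 4 groups: odor GFP+, odor GFP-, vehicle GFP+ and vehicle GFP-. Every group carried the reporter and was kept under the same air flow, and the vehicle mice received pulses as well, so the arms differ in odor against filtered air. The GFP- cells are a mixture and not a single cell type. The sources used here give neither the ionone isomer nor a dose.

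The members work against each other. Bcl2, Bcl2l1, Bcl2l2, Mcl1 and Bcl2a1d encode guardians that hold the pore formers Bax and Bak1 in check. Bcl2l11 (BIM), Bbc3 (PUMA) and Bid encode proteins with only the BH3 domain, which occupy the guardians or activate the pore formers. Once the pore opens, cytochrome c leaves the mitochondrion and caspases are activated. Olfactory sensory neurons are replaced throughout life, and this pathway is known to take part in their turnover. Neutrophils are short-lived cells known to depend on MCL-1 and on the A1 proteins of the Bcl2a1 genes.

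The sort was checked first. S100a5 was higher in GFP+ cells, with log2 differences of 1.31 ± 0.17 in odor and 1.27 ± 0.17 in vehicle pools (SE, n = 4 pools each, limma). Omp, which marks mature olfactory sensory neurons, differed by 0.06 in odor and 0.09 in vehicle pools and did not pass the test, at group mean levels of 18.40 to 18.50 near the top of the scale. Of 13 neutrophil markers, 13 were lower in GFP+ cells in both arms. Their summed linear level was 547 to 1380 in odor GFP+ and 585 to 1010 in vehicle GFP+ samples, against 293000 to 700000 in odor GFP- and 270000 to 742000 in vehicle GFP- samples. The first 2 markers of the list are the calprotectin genes S100a8 and S100a9, and S100a8 had mean levels of 5.34 in odor GFP+ and 14.80 in odor GFP- samples. Arrays of a group correlated at 0.974 to 0.987, and the GFP- sample of odor replicate 3 stood apart on the second principal component, at 90.4 against at most 27.6 in the others. The deposited values ran from 1.67 to 19.35 and were taken as log2. They include 4194 values above 16, beyond what a 16-bit scanner can give, so a fold holds on the deposited scale only. The median of 23 antigenomic background probe sets ran from 5.63 to 6.05 over the arrays and served as the background level.

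Windows around annotated start sites are shown for Mcl1, Bcl2a1d and Bid, because these 3 members were lower in GFP+ cells in both arms. Each window holds 250 bases before and 50 bases after a start site, is read 5′ to 3′ on the gene's strand, and comes from RefSeq on GRCm38.p6. Capitals mark a match to the GC box GGGCGG or its reverse complement and, in Bcl2a1d, also the AP-1 site TGANTCA. The Mcl1 window lies at chr3:95658471-95658770 on the plus strand, the Bcl2a1d window at chr9:88731801-88732100 on the minus strand and the Bid window at chr6:120916775-120917074 on the minus strand.
Mcl1: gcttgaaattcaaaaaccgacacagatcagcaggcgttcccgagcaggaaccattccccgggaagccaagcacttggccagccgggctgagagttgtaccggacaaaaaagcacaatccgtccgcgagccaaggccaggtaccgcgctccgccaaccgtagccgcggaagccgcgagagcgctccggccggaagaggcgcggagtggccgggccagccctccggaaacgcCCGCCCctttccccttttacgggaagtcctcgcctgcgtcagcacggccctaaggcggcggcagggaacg
Bcl2a1d: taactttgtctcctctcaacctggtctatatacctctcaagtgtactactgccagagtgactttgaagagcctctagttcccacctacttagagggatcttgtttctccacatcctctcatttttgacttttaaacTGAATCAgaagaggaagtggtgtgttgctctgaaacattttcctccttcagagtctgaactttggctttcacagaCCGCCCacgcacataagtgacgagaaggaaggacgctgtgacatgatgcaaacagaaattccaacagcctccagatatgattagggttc
Bid: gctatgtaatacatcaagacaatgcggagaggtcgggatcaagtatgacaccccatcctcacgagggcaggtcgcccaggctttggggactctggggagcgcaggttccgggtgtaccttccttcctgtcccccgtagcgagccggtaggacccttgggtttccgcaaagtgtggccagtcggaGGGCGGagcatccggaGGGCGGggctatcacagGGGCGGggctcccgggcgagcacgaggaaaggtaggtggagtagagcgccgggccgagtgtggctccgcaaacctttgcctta
The Mcl1 window held 33 CpG dinucleotides, the Bid window 22 and the Bcl2a1d window 4, against a median of 7 over 32851 RefSeq windows of 300 bases. The GC box matched 1 time in the Mcl1 window, 1 time in the Bcl2a1d window and 3 times in the Bid window, and 35.7% of all windows hold at least 1 match. The AP-1 site matched 1 time, in the Bcl2a1d window, against 7.81% of all windows. The CCAAT box CCAAT (37.4% of windows), the TATA box TATAAA (13.6%), the cyclic AMP response element TGACGTCA (1.79%) and the E-box CACGTG (7.15%) were searched on both strands and had no match in these 3 windows. The searched motifs were counted separately, and a match describes letters and not a bound factor.

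Mcl1, a short-lived guardian protein, was lower in GFP+ than in GFP- cells in 8 of 8 pools. In GFP+ cells its log2 level was 11.91, 11.74, 11.98 and 11.86 in odor replicates 1 to 4 and 12.04, 11.69, 11.83 and 11.79 in vehicle replicates 1 to 4. In GFP- cells it was 13.78, 13.10, 12.96 and 12.87 in odor pools and 13.36, 13.11, 12.92 and 13.04 in vehicle pools. All 8 GFP- samples lay above all 8 GFP+ samples, and within each fraction the arms overlapped. The GFP+ minus GFP- difference was -1.31 ± 0.16 in odor pools (SE, n = 4 pools, limma adjusted p = 1.10e-04) and -1.27 ± 0.16 in vehicle pools (adjusted p = 1.38e-04), which is 2.48-fold and 2.41-fold more in GFP- cells on the deposited scale. Mcl1 lay above the background on all 16 arrays. As these are bulk samples, fewer cells of a type and less RNA per cell cannot be told apart.

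Bcl2a1d encodes an A1 protein, a guardian known mainly from blood cells. Its log2 level in GFP+ cells was 5.29, 4.97, 4.89 and 5.31 in odor pools and 5.26, 4.85, 4.61 and 4.66 in vehicle pools. In GFP- cells it was 6.35, 6.01, 5.95 and 5.98 in odor pools and 6.41, 6.25, 6.15 and 6.08 in vehicle pools. The GFP+ samples, all under the background of their arrays, did not overlap with the GFP- samples, 1 of which was also under it. The difference was -0.96 ± 0.13 in odor pools (SE, n = 4, limma adjusted p = 2.64e-04) and -1.38 ± 0.13 in vehicle pools (adjusted p = 1.38e-05). Set against the mean background of the GFP+ arrays, the mean of Bcl2a1d was 1.13-fold higher in odor GFP- cells. There 3 of 4 samples exceeded the background of their own arrays. In odor replicates 2 and 4 the GFP- level (6.006 and 5.976) did not exceed the background of the pool's GFP+ array (6.007 and 5.980). The odor value is thus no firm lower bound. In vehicle GFP- cells the mean was at least 1.31-fold higher, and 4 of 4 samples exceeded the background of their own arrays. The Bcl2a1 genes are near-identical copies, so the probes may share signal between them, and the value of Bcl2a1d is uncertain as that of 1 gene. Its copies Bcl2a1a and Bcl2a1b had their own probe sets and were also lower in GFP+ cells, Bcl2a1a by a measured -1.46 ± 0.25 in odor and -1.47 ± 0.25 in vehicle pools and Bcl2a1b by -1.55 ± 0.17 and -2.10 ± 0.17. Bcl2a1b was under the background in all GFP+ samples and Bcl2a1a in 4 of 4 odor and 3 of 4 vehicle GFP+ samples. Against the background, Bcl2a1b was at least 1.64-fold higher in odor and 2.26-fold higher in vehicle GFP- cells, and Bcl2a1a at least 1.67-fold higher in odor GFP- cells.

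Bid, which links death receptors to the mitochondrion once caspase 8 cuts it, lay under the background on 16 of 16 arrays, so its difference is given on the log2 scale without a fold. In GFP+ cells the level was 3.23, 3.25, 3.15 and 3.16 in odor pools and 3.01, 3.20, 3.13 and 3.29 in vehicle pools. In GFP- cells it was 4.21, 4.00, 3.58 and 4.34 in odor pools and 4.59, 3.80, 3.75 and 3.58 in vehicle pools. The fractions did not overlap, and the GFP- samples spread more widely. The difference was -0.84 ± 0.20 in odor pools (SE, n = 4, limma adjusted p = 0.0133) and -0.77 ± 0.20 in vehicle pools (adjusted p = 0.0202). The odor call was lost without odor replicate 1 (adjusted p = 0.0599) or 4 (0.0722), and the vehicle call without vehicle replicate 1 (0.0922), while the difference stayed negative without any 1 pool.

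Bak1, the pore former that sits in the mitochondrial membrane, lay under the background on 15 of 16 arrays. Its GFP+ level was 4.90, 4.24, 4.80 and 4.66 in odor pools and 4.69, 5.10, 5.29 and 4.84 in vehicle pools, and its GFP- level was 5.52, 5.66, 4.92 and 5.22 in odor pools and 4.86, 5.34, 5.15 and 5.43 in vehicle pools. The odor GFP+ samples all lay below the odor GFP- samples, while the vehicle fractions overlapped. The difference was -0.68 ± 0.20 in odor pools (SE, n = 4, limma adjusted p = 0.0335) and -0.21 ± 0.20 in vehicle pools (adjusted p = 0.503). The test of the arms against each other did not pass, as odor minus vehicle was -0.47 with a 95% interval of -1.08 to 0.14 (limma adjusted p = 1, exact permutation p = 0.257). The odor call was lost with median centring (adjusted p = 0.0964), under quantile normalization (0.0869) and when odor replicate 1 (0.0864), 2 (0.151, at a difference of -0.44) or 4 (0.0755) or vehicle replicate 2 (0.0502) was left out.

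**Figure D1:**
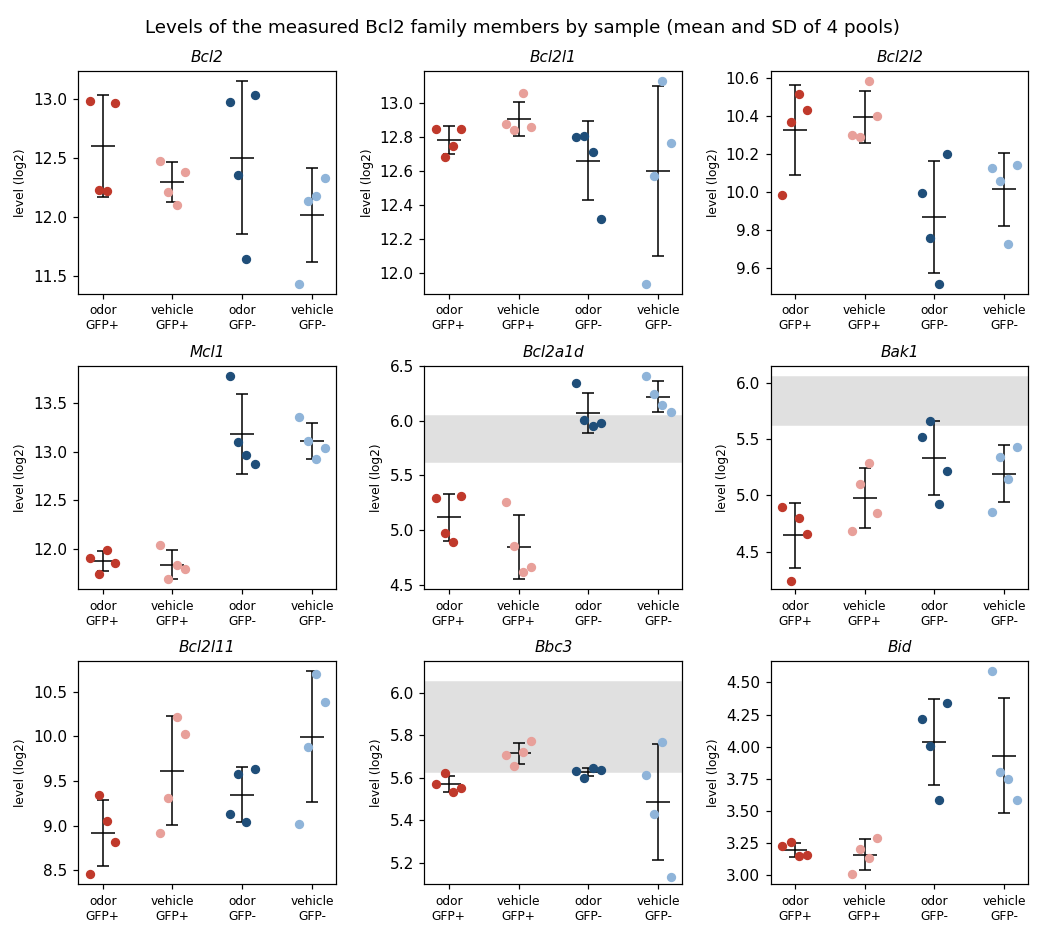
Log2 level of each measured member in every sample, with the 4 groups on the horizontal axis and 1 panel and vertical scale per gene, so that heights are not to be set against each other between panels. Points are pools, bars are the mean and SD of 4 pools, and the grey band is the range of the array background (5.63 to 6.05) where it falls inside a panel. Mcl1, Bcl2a1d and Bid show GFP- samples that all lie above the GFP+ samples. The share of all genes that separate in this way was not counted.

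The guardians Bcl2, Bcl2l1 and Bcl2l2 did not pass the test between the fractions in either arm. Bcl2l2 (BCL-W), known for its expression in neurons, had GFP+ levels of 9.99, 10.37, 10.52 and 10.43 in odor pools and 10.30, 10.29, 10.59 and 10.40 in vehicle pools, against 10.00, 9.76, 9.52 and 10.20 and then 10.13, 10.06, 9.73 and 10.14 in GFP- cells. It was higher in GFP+ cells in 7 of 8 pools, by 0.46 ± 0.18 in odor pools (SE, n = 4, limma adjusted p = 0.110) and 0.38 ± 0.18 in vehicle pools (adjusted p = 0.184). With median centring it passed in odor pools, at 0.68 (adjusted p = 0.0220). The highest differences were 1.00 in odor replicate 3 and 0.86 in vehicle replicate 3. The odor difference was 0.28 without odor replicate 3 (adjusted p = 0.359), and the vehicle difference was 0.22 without vehicle replicate 3 (adjusted p = 0.504). In both pools numbered 3, levels of Y-linked genes (Kdm5d, Uty and Eif2s3y) were between 2.76 and 4.09, under the array background. In the other pools they were 6.42 to 12.09. The pools numbered 3 thus gave no sign of male cells, so the sex of the mice differed between pools. The GFP- samples of the pools numbered 3 had the highest values on the second principal component. The part of sex in the Bcl2l2 differences was not tested.

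Bcl2, the founding guardian, had GFP+ levels of 12.98, 12.23, 12.22 and 12.97 in odor pools and 12.48, 12.22, 12.10 and 12.38 in vehicle pools. Its GFP- levels were 12.98, 12.36, 11.64 and 13.04 in odor pools and 11.43, 12.13, 12.18 and 12.33 in vehicle pools. Odor replicates 1 and 4 were high in both fractions, and the groups overlapped throughout. The difference between the fractions was 0.10 ± 0.20 in odor pools (SE, n = 4, 95% interval -0.33 to 0.53, limma adjusted p = 0.779) and 0.28 ± 0.20 in vehicle pools (-0.15 to 0.71, adjusted p = 0.372). The vehicle value came from replicate 1, at 1.04 against -0.07 to 0.08 in the other vehicle pools, and was 0.02 without it. The odor value was -0.06 without odor replicate 3 and 0.32 with median centring, and neither passed.

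Bcl2l1 (BCL-XL), a guardian known for its role in neuron survival, spanned 12.69 to 13.06 in the GFP+ fraction and 11.94 to 13.13 in the GFP- fraction. Its difference was 0.12 ± 0.18 in odor pools (SE, n = 4, limma adjusted p = 0.682) and 0.31 ± 0.18 in vehicle pools (adjusted p = 0.272). The intervals, -0.27 to 0.51 and -0.09 to 0.70, leave room for a difference in either direction. The vehicle difference was 0.94 in replicate 1 and 0.10 over the others, and the odor difference was 0.53 in replicate 4 and -0.01 over the others.

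Among the BH3-only members, Bcl2l11 was lower in GFP+ cells in 7 of 8 pools without passing the test. Its GFP+ levels were 8.46, 9.34, 9.05 and 8.81 in odor pools and 8.91, 9.31, 10.22 and 10.02 in vehicle pools, and its GFP- levels were 9.12, 9.58, 9.04 and 9.64 in odor pools and 9.01, 9.88, 10.69 and 10.39 in vehicle pools. Vehicle replicates 3 and 4 were the highest in both fractions. The difference was -0.43 ± 0.16 in odor pools (SE, n = 4, limma adjusted p = 0.0889) and -0.38 ± 0.16 in vehicle pools (adjusted p = 0.131). With median centring the values moved to -0.21 (adjusted p = 0.324) and -0.23 (adjusted p = 0.314). Without odor replicate 3, whose GFP- sample stood apart, the odor difference was -0.58 and passed (adjusted p = 0.0399), while Mcl1, Bcl2a1d, Bak1 and Bid kept their calls at -1.42, -0.92, -0.87 and -0.97. Bbc3 lay under the background on 14 of 16 arrays, between 5.13 and 5.77, and differed by -0.06 ± 0.14 in odor and 0.23 ± 0.14 in vehicle pools (adjusted p = 0.812 and 0.291).

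**Figure D2:**
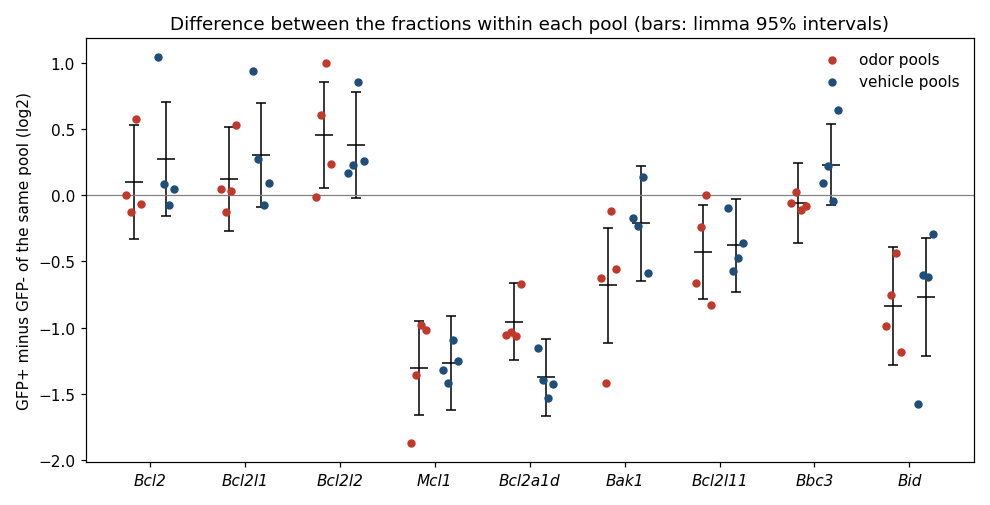
GFP+ minus GFP- log2 difference of each pool on the vertical axis for the 9 measured members, odor pools in red and vehicle pools in blue, with the mean and the 95% interval of the limma fit. Mcl1, Bcl2a1d and Bid lie below 0 in 8 of 8 pools, and Bcl2l2 lies above 0 in 7 of 8. Such counts were not made over all genes.

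In odor pools 4 of 9 measured members were called lower in GFP+ cells and 0 higher, against 10.6% of all genes lower and 7.96% higher at an adjusted p of 0.05. In vehicle pools 3 of 9 were lower and 0 higher, against 10.8% lower and 8.86% higher. The called members were Mcl1, Bcl2a1d and Bid in both arms and Bak1 in odor pools. Of these, the pore former gene Bak1 lay under the background on 15 of 16 arrays and the BH3-only gene Bid on 16 of 16. Without genes under the background in every group, the guardian genes Mcl1 and Bcl2a1d were the members called in odor pools. The median difference over the 9 members was -0.43 in odor and -0.21 in vehicle pools, and that over all genes was 0.11 in both arms. Median centring moved the median of all genes to 0.34 in odor and 0.26 in vehicle pools and raised the share of higher genes among all calls from 42.9% to 78.5% and from 45.1% to 67.6%. Under it Mcl1, Bcl2a1d and Bid remained lower in both arms. At an unadjusted limma p under 0.05, 6 of 9 members differed between the fractions in odor pools, against 31.6% of all genes. In vehicle pools 4 of 9 did, against 31.4%. The share of all genes whose fractions do not overlap was not counted, so the separation of Mcl1, Bcl2a1d and Bid has no such share beside it.

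Markers of several cell types moved with these differences. Besides the neutrophil list, macrophage markers were lower in GFP+ cells in 7 of 11 measured genes in odor pools and 8 of 11 in vehicle pools. Their summed linear level was 829 to 2150 in odor GFP+ and 813 to 2180 in vehicle GFP+ samples, against 16400 to 52300 in odor GFP- and 19000 to 69200 in vehicle GFP- samples. Lyz2 carried most of the GFP- sum, with a mean log2 level of 14.80 in odor GFP- samples. The next highest there were Cd14 at 9.06 and Csf1r at 8.95. The sum thus describes Lyz2 more than the list. Mrc1 and C1qc were not called in either arm. C1qa and C1qb were not called in odor pools (limma adjusted p = 0.0538 and 0.222), nor was Fcgr1 in vehicle pools (0.652). Lymphocyte markers were lower in 10 and 9 of 10, microvillar cell markers in 7 and 7 of 7 and sustentacular cell markers in 7 and 8 of 10. Markers of globose basal and proliferating cells were lower in 6 and 6 of 7, erythroid markers in 4 and 3 of 5 and immature sensory neuron markers in 5 and 5 of 10. Stromal and endothelial markers were lower in 3 and 3 of 7 and horizontal basal cell markers in 1 and 1 of 5. In each group 6 of these 7 and 5 of these 5 genes had a mean under the background, which limits both counts. Even in GFP- samples of each arm, means lay under it for 3 of 7 globose basal and 2 of 5 erythroid markers. For lymphocyte markers this held for 1 of 10 in odor and 3 of 10 in vehicle GFP- samples. Of 10 mature sensory neuron markers, 1 was higher in GFP+ cells in each arm and 0 were lower. Cngb1 of this list lay under the background in all samples. Omp, Gnal and Stoml3 had group means of 17.98 to 19.35, near the top of the scale, which limits what this list can show. The genes whose levels over the 16 samples were most like that of Mcl1 by Pearson correlation were Nfam1 (0.981), Tagln2 (0.979) and Lcp1 (0.978), and for Bcl2a1d they were Capns1 (0.980), Ncf4 (0.978) and Cd14 (0.977). Those most like Bid were Acnat1 (0.961), Gsto1 (0.953) and Il1rn (0.949). The samples share their pools and the large difference between the fractions, so the correlations are a description. The part of these cell types in the differences of the members was not tested.

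The remaining members had other nearest genes. For Bcl2 they were Ccdc170 (0.910), Nmnat1 (0.864) and Sltm (0.852), for Bcl2l1 Maml1 (0.906), Cbll1 (0.905) and Proser1 (0.904), and for Bcl2l2 Tmem126a (0.929), Stard4 (0.901) and Tspan3 (0.888). For Bcl2l11 they were the splicing factor gene Srsf5 (0.890), Hbp1 (0.889) and Dedd2 (0.872), and for Bak1 Basp1 (0.869), Olfr1215 (0.823) and Ccnl1 (0.810). Bbc3 had the lowest values, with Gm11937 (0.757), Bckdhb (0.751) and Rhox13 (0.728).

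The question of whether odor changed these genes was put to the fractions separately and to the within-pool difference. In GFP+ cells 0 of 9 members passed the limma test, against 0% of all genes, with 1 member, Bcl2l11, and 1070 genes (5.49%) at an unadjusted p under 0.05. In GFP- cells 0 of 9 passed, against 0.00513% of all genes, with 0 members and 697 genes (3.57%) under the unadjusted limit. For the odor minus vehicle difference of the within-pool values 0 of 9 passed, against 0%, with 1 member, Bcl2a1d, and 654 genes (3.35%) under it.

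Bcl2l11 had the largest odor minus vehicle value among the members in both fractions. It was -0.70 ± 0.29 in GFP+ cells (SE, n = 4 pools per arm, 95% interval -1.34 to -0.06, limma adjusted p = 0.892) and -0.65 ± 0.32 in GFP- cells (-1.36 to 0.07, adjusted p = 1). The arms overlapped in both fractions, and an exact two-sided permutation test over pools gave p = 0.143 and 0.171. With the arms exchanged only within same-numbered pools, the exact permutation p in GFP+ cells was 0.25. Bcl2 differed the opposite way, by 0.30 ± 0.20 in GFP+ cells (-0.15 to 0.76) and 0.48 ± 0.31 in GFP- cells (-0.21 to 1.18), with adjusted p of 0.935 and 1. For Mcl1 the odor minus vehicle value was 0.04 in GFP+ cells (-0.24 to 0.32) and 0.07 in GFP- cells (-0.40 to 0.54).

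**Figure D3:**
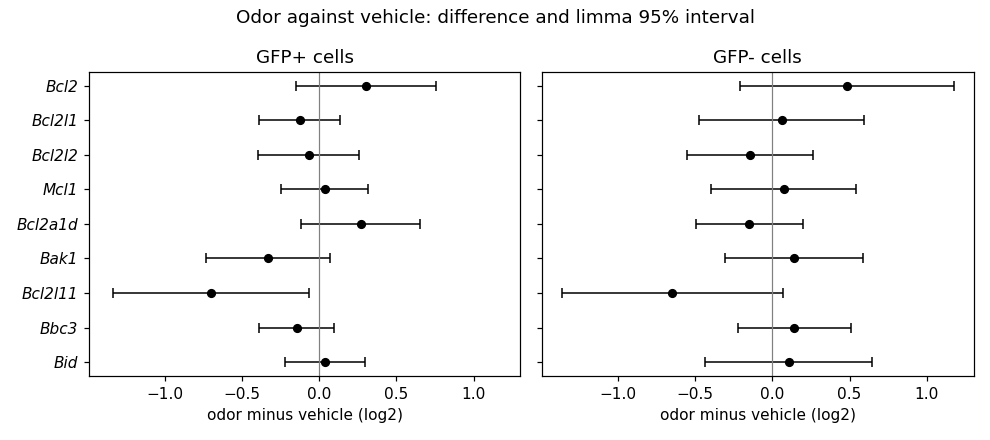
Odor minus vehicle log2 difference of the 9 measured members with 95% limma intervals, in GFP+ cells on the left and GFP- cells on the right. Intervals include 0 for every member except Bcl2l11 in GFP+ cells (-1.34 to -0.06), whose adjusted p was 0.892.

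Bcl2a1d was the member whose within-pool difference separated the arms. The odor pools lay between -1.07 and -0.67 and the vehicle pools between -1.53 and -1.15, without overlap. Odor minus vehicle was 0.42 ± 0.19 (SE, n = 4 pools per arm, limma adjusted p = 1). The exact permutation test gave p = 0.0286, the smallest that 4 against 4 pools allow, and 0.386 after Benjamini-Hochberg adjustment over the 27 tests run on the 9 members. The copy Bcl2a1b differed by 0.56 ± 0.24 and the copy Bcl2a1a by 0.0038 ± 0.35, both at a limma adjusted p of 1. The GFP+ samples of Bcl2a1d were all under the background. Bbc3 was the only other member to reach 0.0286 in these tests, with an odor minus vehicle value of -0.146 for its GFP+ level, from 5.53 to 5.62 in odor and 5.66 to 5.77 in vehicle pools. Its adjusted p was 0.386 as well. With the arms exchanged only within same-numbered pools, the exact permutation p for Bbc3 was 0.125, the smallest that 4 pairs allow. The GFP+ levels of Bcl2, Bcl2l1 and Bcl2a1d also reached 0.125 in that test. The Bbc3 levels lie near or under the background.

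The pools of an arm also differed among themselves. Over 8 pools the Bcl2l11 level of GFP+ cells correlated with that of GFP- cells of the same mice at r = 0.892 (exact permutation p = 0.00414, 0.0373 after Benjamini-Hochberg adjustment over the 9 members) and rho = 0.690 (exact permutation p = 0.0694, adjusted 0.625). Without vehicle replicates 3 and 4, the pools farthest from the median, r was 0.541. The relation thus rests in part on those pools, both of the vehicle arm. With the mean of each arm removed r was 0.84. For Bcl2 r was 0.688 (exact permutation p = 0.0589, adjusted 0.265) and rho 0.500 (p = 0.216), and r became -0.442 without odor replicates 1 and 4. For Mcl1 r was 0.296 (exact permutation p = 0.493) and rho 0.0952, and the median r over all genes was 0.166.

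**Figure D4:**
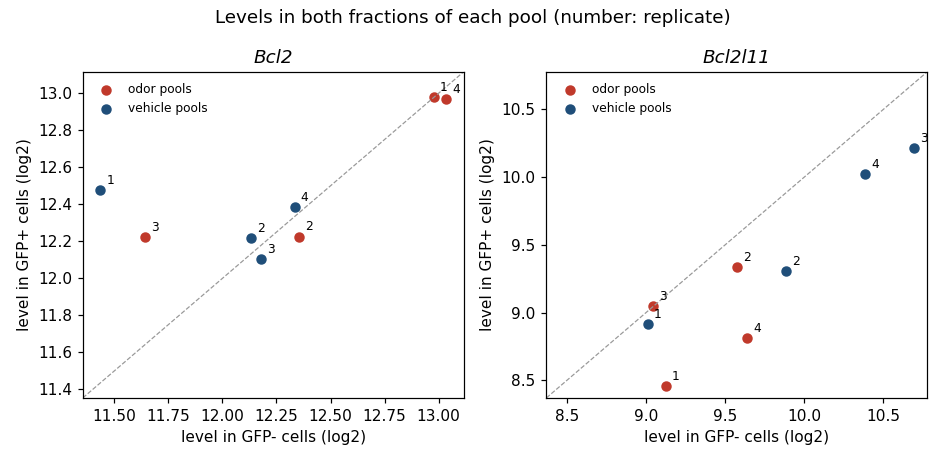
Log2 level in GFP+ cells against that in GFP- cells of the same pool for Bcl2 and Bcl2l11, with 1 numbered point per pool, odor in red and vehicle in blue, and a dashed line of equal levels. Vehicle replicates 3 and 4 lie highest for Bcl2l11, and odor replicates 1 and 4 lie highest for Bcl2.

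The rest of the family was read from a list of 17 relatives, all measured. In odor pools 2 were lower in GFP+ cells, Bcl2a1b and Bcl2a1a, and 1 was higher, Bok, a pore former of the endoplasmic reticulum and mitochondrion, by 0.77 ± 0.15 (SE, n = 4, limma adjusted p = 0.00433). In vehicle pools 4 were lower, Bcl2a1b, Bcl2a1a, the mitophagy receptor gene Bnip3l at -0.70 ± 0.20 (adjusted p = 0.0319) and the BH3-only gene Pmaip1, under the background in all samples, at -0.47 ± 0.13, and 0 were higher. The median over the list was -0.10 in odor and -0.05 in vehicle pools. Over all genes 10.6% were lower and 7.96% higher in odor pools, and 10.8% and 8.86% in vehicle pools. In odor pools 2 lower and 1 higher of 17 are near these shares, while in vehicle pools 4 lower of 17 is above its share. Those 4 include the copies Bcl2a1a and Bcl2a1b, whose probes may share signal, and Pmaip1, under the background throughout. The count is thus not one of separate, detected genes. The same shares over all genes belong beside the counts of the lists that follow.

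Downstream, 12 of 15 listed genes of the apoptosome and caspases were measured. Casp8, the initiator caspase of death receptors and the enzyme that cuts Bid, was lower in GFP+ cells, with a difference of -4.68 ± 0.27 in odor pools (SE, n = 4, limma adjusted p = 2.19e-07) and -3.95 ± 0.27 in vehicle pools (adjusted p = 8.64e-07). Its mean level was 6.70 in odor GFP+ and 11.38 in odor GFP- samples. Apaf1, the scaffold of the apoptosome, was lower, at -0.55 ± 0.12 in odor and -0.53 ± 0.12 in vehicle pools, and Casp2 was lower in odor pools, at -0.57 ± 0.16. The mitochondrial nuclease gene Endog was the member of this list that was higher, by 0.66 ± 0.15 in odor and 0.53 ± 0.15 in vehicle pools. The counts were 3 lower and 1 higher in odor pools and 2 lower and 1 higher in vehicle pools, and the list medians were 0.08 and 0.05.

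Of 9 listed caspase inhibitors 8 were measured, and 5 were lower in GFP+ cells in each arm. Birc3 (cIAP2), a ubiquitin ligase of tumor necrosis factor signalling, differed by -3.59 ± 0.18 in odor pools (SE, n = 4, limma adjusted p = 6.81e-08) and -3.39 ± 0.18 in vehicle pools (adjusted p = 1.03e-07). Naip5 and Naip2, sensors of bacterial proteins that belong to the same family by sequence, differed by -1.69 ± 0.38 and -1.08 ± 0.22 in odor pools. Birc5 (survivin), which acts in dividing cells, differed by -0.87 ± 0.19 in odor and -1.50 ± 0.19 in vehicle pools. Naip6 was the fifth in each arm, at -0.87 ± 0.17 and -1.02 ± 0.17. Naip5, Naip6 and Birc5 lay under the background in every GFP+ sample and in most GFP- samples, namely 3 of 4 odor and 3 of 4 vehicle samples for Naip5, 4 and 3 for Naip6 and 4 and 2 for Birc5, so no bound on their fold could be given. The list median was -0.87 in odor and -1.11 in vehicle pools.

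Of 11 listed genes of death receptor input 10 were measured. The tumor necrosis factor receptor gene Tnfrsf1a was lower in GFP+ cells, at -3.75 ± 0.33 in odor pools (SE, n = 4, limma adjusted p = 7.81e-06) and -3.84 ± 0.33 in vehicle pools (adjusted p = 6.53e-06), and Tnf at -3.64 ± 0.36 and -3.36 ± 0.36. Both lay under the background in every GFP+ sample, and against it Tnfrsf1a was at least 4.51-fold higher in odor and 5.62-fold higher in vehicle GFP- cells. In vehicle pools Tnfsf10 also was lower, at -0.89 ± 0.26, with levels under the background in both fractions, as was Fas, at -0.61 ± 0.19, also under it. Fadd, the adaptor of death receptors, was higher there, at 0.42 ± 0.13. The counts were 2 lower and 0 higher in odor pools and 4 lower and 1 higher in vehicle pools.

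Among 15 of 16 measured upstream regulators, Jun, a transcription factor gene of neuronal and stress responses, was the 1 called gene in each arm. It was lower in GFP+ cells, at -0.75 ± 0.12 in odor pools (SE, n = 4, limma adjusted p = 7.46e-04) and -0.86 ± 0.12 in vehicle pools (adjusted p = 2.52e-04). In the comparisons of odor with vehicle, 0 genes of these 5 lists passed in either fraction or in the within-pool difference.

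**Figure D5:**
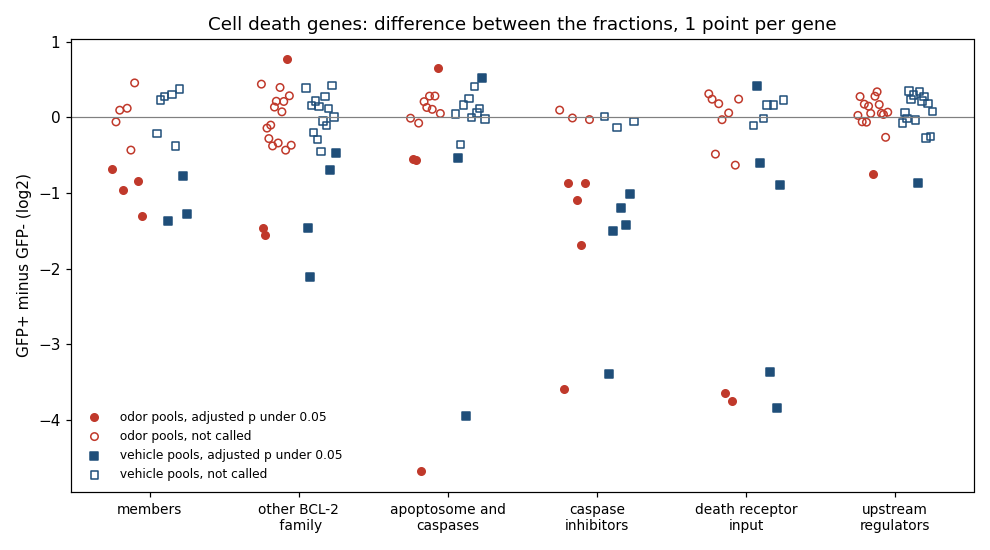
GFP+ minus GFP- log2 difference on the vertical axis for each measured gene of the 9 members and of 5 lists of cell death genes, odor pools as red circles and vehicle pools as blue squares, filled where the limma adjusted p was under 0.05. The lowest points are Casp8 (-4.68 and -3.95), Tnfrsf1a, Tnf and Birc3, and most genes lie within 1 unit of 0.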

How the data were processed

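RNA of 16 sorted samples was measured on Clariom S arrays. The deposited series table holds 1 value per probe set and array, taken as log2 from its range. Per the submitters' processing notes it was made with Affymetrix Expression Console; its version, summarization and normalization are not stated in the sources used here. Of 28846 probe sets, 19572 had 1 gene symbol; the probe set with the highest mean stood for each of 55 genes with several, leaving 19505 genes. Pools were read from codes in the sample titles, which number 2 vehicle pools 3; the later is replicate 4 here. Both fractions of a pool came from the same mice, so limma 3.58.1 (R 4.3.3) was fitted to the 8 GFP+ minus GFP- differences, and to the 8 samples of each fraction for odor against vehicle. Two-sided p-values, Benjamini-Hochberg adjusted over all genes and held to a threshold of 0.05, measure the spread between pools of 3 mice. The fits were run on simulated data with independent noise per sample and no shared pool part. The outcome was checked for odor against vehicle within each fraction, not for the GFP+ minus GFP- fits.

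Deviations of same-numbered odor and vehicle pools correlated at 0.114 to 0.242 in GFP+ cells, over 0.1 for each of 4 numbers. This was read as a sign of pairing of the GFP+ samples. In GFP- cells (0.0664 to 0.332) and within-pool differences (0.0974 to 0.305) this limit was missed. Differently numbered pools were not compared, so the limit of 0.1 has no reference value. The highest value of each range was that of the pools numbered 3, which gave no sign of male cells. The part of sex in these correlations was not tested. The main fits left such pairing out, as nothing in the labels names shared handling of same-numbered pools. A replicate block was an alternative. The exact permutation test was run on all 9 measured members, wider than planned. Other alternatives were median centring, quantile normalization, leaving out genes under the background in every group, the lowest-mean probe set, a mean-variance trend, each pool left out, the pool as a random block and no block. Named genes were all members, per list up to 3 called genes with the largest difference, the 3 genes most correlated with each member and the first 2 cell type markers. Further called genes of a list, S100a5 and the Y-linked genes were named after their values were seen. The members and lists were chosen with earlier results of these data known. The number of arrays limits the precision.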

Additional observations from a re-analysis of the deposited data

Results flagged for a closer look

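Within groups of 4 values of 1 member, 54 in all, the lowest or highest value was compared with the others by Dixon's test at its 95% critical value of 0.829. Chance gives about 1 in 20 groups, and 5 were found. The within-pool differences are formed from the same levels, so the groups are not independent and the count cannot show an excess. The within-pool difference of Bcl2 was 1.04 in vehicle replicate 1, against -0.07 to 0.08 in the other vehicle pools. That of Bcl2l2 was 0.856 in vehicle replicate 3, against 0.17 to 0.26. That of Bcl2a1d was -0.669 in odor replicate 4, against -1.07 to -1.03. The level of Bcl2l1 was 13.06 in the GFP+ sample of vehicle replicate 3, against 12.84 to 12.88. The level of Bcl2a1d was 6.35 in the GFP- sample of odor replicate 1, against 5.95 to 6.01.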

How the results depend on the processing

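Mcl1 and Bcl2a1d were called lower in GFP+ cells in both arms under every alternative run, and 0 members were called for odor against vehicle under any. The number of members called was 4 in odor pools, 2 (Mcl1 and Bcl2a1d) without genes under the background in every group, and 2 to 5 with 1 pool left out; in vehicle pools it was 3, and 2 to 3 with 1 pool left out. Over all genes, 3620 were called in odor pools, 3262 without those genes and 2677 to 3768 with 1 pool left out, and 3835, 3482 and 2788 to 4202 in vehicle pools. The replicate block left 0 members called in GFP+ cells, in GFP- cells and in the within-pool difference, and no replicate block left 4 and 3 called in the odor and vehicle pools, so neither changed a call. In a permutation within same-numbered pools, chosen after seeing the data, the GFP+ value of Bbc3 (-0.146) had p = 0.125 (exact). Bcl2, Bcl2l1 and Bcl2a1d had the same p there. All sign changes were in values that did not pass: Bbc3 in odor pools became 0.165 with median centring and 0.123 with quantile normalization, and the odor minus vehicle within-pool difference with median centring became 0.0358 for Mcl1, 0.0209 for Bcl2l11 and 0.00548 for Bid. With 1 pool left out at a time, these ranges crossed 0. Between the fractions in odor pools they were -0.0646 to 0.172 for Bcl2 and -0.0145 to 0.204 for Bcl2l1. For odor minus vehicle of the within-pool differences they were -0.341 to 0.076 for Bcl2, -0.321 to 0.0255 for Bcl2l1, -0.103 to 0.237 for Bcl2l2, -0.147 to 0.151 for Mcl1, -0.197 to 0.0792 for Bcl2l11 and -0.337 to 0.0927 for Bid. For odor minus vehicle in GFP+ cells they were -0.132 to 0.0462 for Bcl2l2, -0.0126 to 0.103 for Mcl1 and -0.0126 to 0.0818 for Bid, and in GFP- cells -0.162 to 0.236 for Bcl2l1, -0.127 to 0.175 for Mcl1 and -0.011 to 0.324 for Bid. The cause was not tested. Bak1, Bid and Bbc3 lie at or under the background and Bcl2a1d does so in GFP+ cells, which limits their differences.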
